A study of Mus musculus with 16 samples.

Results

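To examine what early fluoxetine leaves behind in the adult cortex, whichever the Arid1b genotype, all 16 medial prefrontal cortex (mPFC) transcriptomes of the series were used, comparing 8 mice given fluoxetine (Flx) with 8 given vehicle (Veh). All were male C57BL/6N mice sampled at P120, with 1 RNA sample from each mouse. WT-Veh and WT-Flx were wild-type mice, and HT-Veh and HT-Flx were mice heterozygous for a frameshifting deletion of Arid1b exon 5, with 4 mice in each group. Dams of the Flx groups drank 0.1 mg/ml fluoxetine in 0.2% saccharin from P3 to P21 and dams of the Veh groups drank saccharin alone, so the pups took up the drug with milk and had been off it from weaning to P120. The drug was given by dam and the labels name no litters, so litter and treatment cannot be told apart. The p-values measure the spread between mice.

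Fluoxetine blocks the serotonin transporter, which takes released serotonin back into nerve endings, and so prolongs the action of serotonin on its receptors. The mPFC holds layered glutamatergic neurons and GABAergic interneurons that carry several of these receptors and receive serotonergic fibres from cell bodies in the raphe nuclei of the brainstem. Serotonin shapes the wiring of the cortex early in life, which is why exposure in the first weeks after birth is studied for lasting effects.

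No gene passed the test. Values were normalized read counts, and the change was estimated on log2(value + 1) in limma with genotype as a covariate, over the 17567 genes whose value reached 10 or more in 4 or more mice. Of these, 0 (0%) passed a Benjamini-Hochberg adjusted p of 0.05 in limma, and the smallest adjusted p was 0.9997. At an unadjusted p under 0.05, 546 genes (3.11%) were counted, 240 of them higher in Flx mice (1.37%) and 306 lower (1.74%). The median change over all genes was 0.0019, and 49.1% of the genes had a change below 0.

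The precision of the comparison can be given as the interval around each change. The 95% interval reached a median of 0.22 to either side of the change on the log2 scale, and the whole interval lay within 0.5 of no change for 72.6% of the genes and within 1 for 92.5%. For the 12542 genes with a mean value of at least 100, the interval lay within 0.5 for 94.2%. A change above 1 in either direction was estimated for 48 genes, and 4 of these had a mean of at least 100. These 4 were Gm10222, Ms4a15, Gm14440 and Gm12671, chosen after their values were seen. The standard errors of the last 3 were 1.44, 1.76 and 2.00, larger than their changes of 1.36, 1.301 and -1.10. These intervals are not adjusted for the number of genes, so they do not mark the smallest change that could pass with 8 mice on each side. The 546 genes at an unadjusted p under 0.05 had intervals that left out 0, and 0 of them passed adjustment in limma.

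The mice differed in markers of the olfactory bulb, for a reason that was not tested. The mean log2 level of 10 olfactory bulb markers lay between 6.58 and 7.36 in 11 mice and between 8.85 and 10.62 in the other 5, namely 3 WT-Flx mice (replicates 1, 2 and 4), WT-Veh replicate 1 and HT-Veh replicate 4. The bulb markers had a median change of 1.08 in WT mice and of -0.51 in HT mice. With the bulb level as a further covariate, 692 genes (3.94%) were counted at an unadjusted p under 0.05, and without the 5 mice, which left 1 WT-Flx mouse, 793 of 17118 (4.63%). In both cases 0 genes passed adjustment in limma. Without WT-Flx replicate 1 alone, 889 genes were counted and 0 passed. The sequencing depth is unknown, since the values had been normalized. Normalized totals per mouse ran from 92.8% to 104% of their mean, and mitochondrially encoded genes took 8.94% to 12.0% of the total. No difference between Flx and Veh mice was found in the total or in this share (two-sided exact permutation within genotypes, p = 0.409 and 0.372, adjusted p = 0.754 for both over 4 measures). The totals are of values already divided by size factors, so their test says nothing about depth.

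The leading gene by p, Ptgis, encodes prostacyclin synthase, which makes a prostaglandin that widens vessels. It lies at chr2:167191805-167240604 (GRCm38). Its normalized read count was 53.0, 41.6, 45.6 and 30.8 in the WT-Veh mice and 24.5, 11.7, 27.0 and 20.9 in the WT-Flx mice. In the HT-Veh mice it was 40.1, 27.7, 36.8 and 38.3, against 21.8, 13.2, 28.5 and 21.0 in the HT-Flx mice. Within WT mice the groups did not overlap, as was so with Flx lower for 1.09% of all genes, and within HT mice 1 Flx mouse lay above the lowest Veh mouse. The change was -0.89 ± 0.20 (SE) over both genotypes, -1.02 in WT and -0.77 in HT, at an unadjusted p of 0.00035.

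Ftsj3, a methyltransferase of ribosomal RNA processing, was second by p. It had values of 664, 703, 615 and 667 in WT-Veh mice and of 856, 793, 755 and 722 in WT-Flx mice. In HT-Veh mice the values were 648, 738, 739 and 722, and in HT-Flx mice 860, 853, 864 and 768. Every Flx mouse exceeded every Veh mouse of its own genotype, as was so for 1.81% of all genes in WT and 0.934% in HT mice. The change was small, at 0.24 ± 0.06, and nearly the same in WT (0.24) and HT (0.23).

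Among the other protein-coding genes with a mean of at least 50, a small p and a positive change, Mlx, a partner of glucose-sensing transcription factors, ran from 514 to 661 in Veh mice with a median of 555 and from 619 to 724 in Flx mice with a median of 674. Its change was 0.25 ± 0.06. Ccdc66, a protein of centrosomes and cilia, had a mean of 371 ± 25.2 (SD, n = 8) in Veh and 448 ± 45.5 (n = 8) in Flx mice, a change of 0.27. Grp, which encodes gastrin-releasing peptide, changed by 0.37. The other genes given in this direction were the spliceosomal Cwc27, the laminin chain Lamb1, the cochaperone Dnajb4, Fam192a, the potassium channel partner Kcnip4 and Ftsj3 itself, with changes from 0.16 to 0.26. Fam192a went from 0.25 to 0.12 when the 5 mice high in bulb markers were left out.

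Among protein-coding genes with a mean of at least 50, those with the smallest p and a negative change were led by Ogdhl, a brain form of the oxoglutarate dehydrogenase subunit, with a mean of 2731 ± 123 (SD, n = 8) in Veh and 2365 ± 220 (n = 8) in Flx mice. Its change was -0.21 ± 0.06, with -0.32 in WT and -0.10 in HT, and -0.15 without the 5 mice high in bulb markers. Ccl28, a chemokine of mucosal surfaces, changed by -0.90 ± 0.25. Its values spread widely in WT-Veh mice, at 131, 119, 49.0 and 43.0, against 17.5, 42.6, 44.4 and 32.1 in WT-Flx mice. In HT mice they were 63.9, 84.3, 79.4 and 87.2 with vehicle and 43.6, 66.9, 43.3 and 57.1 with fluoxetine. The groups overlapped in both genotypes, and without the 5 mice the change was -0.52. Others in this direction were the interleukin receptor subunit Il17rc (-0.58), the secreted protease inhibitor homologue Wfikkn2 (-0.53), the cobalamin uptake protein Amn (-0.51), the collagen Col26a1 (-0.36), the zinc finger gene Zfp455 (-0.42), Ccdc120 (-0.27) and the deglycating kinase Fn3krp (-0.17). Without the 5 mice these were at -0.50, -0.57, -0.34, -0.27, -0.41, -0.27 and -0.18, in the same order.

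**Figure D1:**
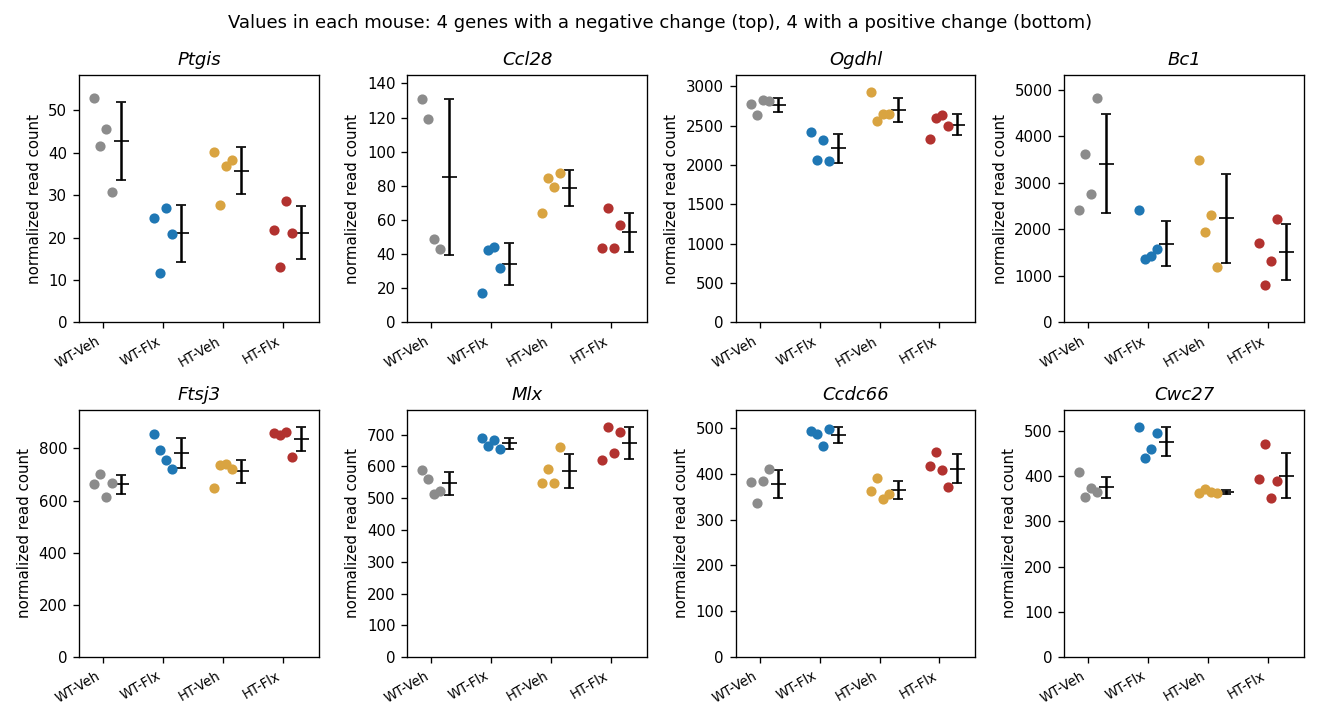
Normalized read count (y axis, from 0) of 8 genes in each of the 16 mice, as points by group (x axis), with the group mean and SD (n = 4) as black bars. Ptgis runs from 27.7 to 53.0 in Veh mice and from 11.7 to 28.5 in Flx mice, while the shifts of Ftsj3, Mlx, Ccdc66 and Cwc27 are small beside their levels.

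The abundant RNA with the largest change that was measured in every mouse was Bc1, a short noncoding RNA made by RNA polymerase III and carried into dendrites, where it represses translation. It was chosen after its values were seen. Among the 5622 genes with a mean of at least 1000, its change was second in size. The annotated transcript, at chr7:144914470-144914637 (GRCm38, plus strand, exonic throughout, GENCODE M21), is 168 bases long and has no reading frame annotated. It is shown because the libraries were made from poly-A RNA and Bc1 carries a run of A inside the transcript. Capitals mark its longest run of A, 23 bases from position 77 to 99, counted from the 5′ end.
Bc1: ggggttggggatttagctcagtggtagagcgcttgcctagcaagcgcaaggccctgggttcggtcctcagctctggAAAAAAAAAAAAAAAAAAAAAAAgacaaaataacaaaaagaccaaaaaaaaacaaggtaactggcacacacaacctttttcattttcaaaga
A is 41.7% of the whole transcript and 52.2% of the bases after this run, where the next longest run of A in the transcript, 9 bases, is found.

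Bc1 had normalized read counts of 2428, 3620, 2770 and 4824 in WT-Veh mice and 2419, 1360, 1426 and 1574 in WT-Flx mice. HT-Veh mice had 3503, 1943, 2309 and 1186, and HT-Flx mice had 1702, 803, 1317 and 2226. The WT groups did not overlap, as was so with Flx lower for 1.09% of all genes, while the HT groups did. Its change was -0.78 ± 0.23 over both genotypes, -0.998 in WT and -0.55 in HT, with an unadjusted p of 0.0029 and an adjusted p of 0.9997 in limma. Without the 5 mice high in bulb markers the change was -0.98. How poly-A selection bears on this RNA was not tested.

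Only 1 gene had all 8 Flx mice on one side of all 8 Veh mice. This was Gm26619, a long noncoding RNA gene at chr13:97751112-97760965 (GRCm38) of unknown function, named after its values were seen, and the share of all genes apart in this direction was 0.00569%. It had 11.3 to 23.7 in Veh mice and 5.01 to 10.7 in Flx mice, close to the filter on low values. Its change was -0.85 ± 0.24, and -0.42 without the 5 mice. No gene was apart in the other direction (0%).

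The serotonin receptors, through which the drug acts, were examined as a list of 14 genes, 12 of which were tested, while Htr2b and Htr3b were not analysed here. None was among the genes at an unadjusted p under 0.05. Htr2a, the excitatory receptor of pyramidal neurons, had values from 981 to 1519 in Veh mice with a median of 1239 and from 965 to 1777 in Flx mice with a median of 1119. Its change was -0.05, with a 95% interval from -0.27 to 0.17. In WT mice it had 984, 1065, 981 and 1150 on vehicle and 1082, 1235, 1155 and 1011 on fluoxetine. In HT mice it had 1519, 1392, 1359 and 1328 on vehicle and 1008, 965, 1285 and 1777 on fluoxetine. Its level was on average higher with fluoxetine in WT mice and lower in HT mice. Htr1a, the inhibitory receptor, had means of 447 ± 56.7 (SD, n = 8) and 418 ± 77.1 (n = 8), a change of -0.11 with an interval from -0.33 to 0.11. For both receptors the groups overlapped over most of their range.

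Htr2c, whose transcript is edited and which couples to phospholipase C, changed by 0.15 with an interval from -0.27 to 0.58. Htr7, coupled to cyclic AMP, changed by -0.21 with an interval from -0.48 to 0.05, and by -0.40 in WT and -0.03 in HT. For 10 of the 12 receptors the interval lay within 1 of no change, and for 7 within 0.5. The widest intervals belonged to receptors with low counts such as Htr1d, with means of 18.8 and 24.3, and Htr5b. Htr4 differed most between genotypes. It had 7.72, 24.2, 12.0 and 28.6 in WT-Veh and 5.03, 9.93, 15.9 and 18.8 in WT-Flx mice, and 6.03, 14.3, 13.9 and 18.3 in HT-Veh against 21.2, 46.7, 16.3 and 45.1 in HT-Flx mice. Its interaction, the change in HT minus that in WT, was 1.68 at an unadjusted p of 0.028, with no interaction passing adjustment in limma.

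Of 9 genes for making, moving and breaking down serotonin, 8 were tested, and Slc6a4 was not analysed here. Maoa and Maob, the oxidases that degrade monoamines, had changes of 0.02 in both cases, with intervals from -0.11 to 0.14 and from -0.10 to 0.15. Maob had 678, 648, 730 and 716 in WT-Veh and 799, 796, 658 and 779 in WT-Flx mice. In HT mice it had 794, 791, 821 and 786 on vehicle and 780, 759, 722 and 765 on fluoxetine. Its HT groups did not overlap (Flx lower without overlap for 1.05% of all genes in HT mice). Tph2 is the neuronal enzyme that makes serotonin, and its protein is found in raphe neurons. It was the 1 member at an unadjusted p under 0.05, in the negative direction (12.5%, against 1.74% of all genes). Its values were low, from 13.3 to 27.7 in Veh mice with a median of 17.6 and from 6.56 to 16.1 in Flx mice with a median of 13.4. Its change was -0.52 ± 0.22 at an unadjusted p of 0.032 in limma, with -0.81 in WT and -0.23 in HT mice. The HT groups overlapped. Without the 5 mice its change was -0.40. The organic cation transporter Slc22a3, a low-affinity carrier of serotonin, changed by 0.31 with an interval from -0.03 to 0.66.

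**Figure D2:**
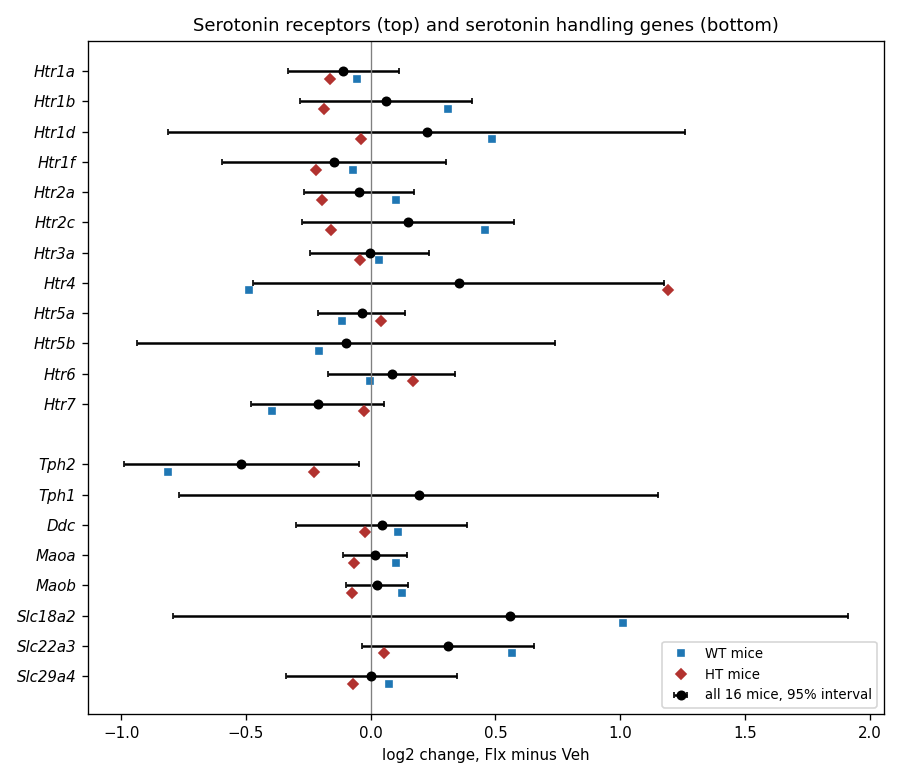
Log2 change, Flx minus Veh (x axis), of 12 serotonin receptors and 8 genes of serotonin handling (y axis), as black points with 95% intervals over all 16 mice, and as squares for WT and diamonds for HT mice where the gene passed the filter in that genotype. All intervals except that of Tph2 include 0. WT and HT lie on opposite sides for Htr4 and for others such as Htr2a, Htr1b and Maob.

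Of 35 lists of pathway genes and cell type markers, 14 had a member at an unadjusted p under 0.05 and none had a member past adjustment. Genes of the cytoplasmic ribosome held the most. Of 82 ribosomal protein genes, 12 were lower (14.6%, against 1.74% of all genes) and 0 were higher, and 62 had a change below 0 (49.1% of all genes did). The median change was -0.09. The 12 lay between -0.33 and -0.20, with -0.56 to -0.20 in WT and -0.24 to -0.06 in HT mice. They were picked by the pooled change, which averages both genotypes, so their signs in each are no separate evidence. Rpl34, a protein of the large subunit, had a mean of 1568 ± 251 (SD, n = 8) in Veh and 1273 ± 182 (n = 8) in Flx mice, and Rps3, of the small subunit, 4714 ± 524 and 4043 ± 419. Their changes were -0.30 and -0.22. Rpl9 and Rpl41 changed by -0.32 and -0.29.

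The mean log2 level of the 82 genes was 11.49, 11.04, 10.99 and 11.03 in WT-Veh and 11.34, 10.77, 10.86 and 11.10 in WT-Flx mice. It was 11.08, 10.99, 10.98 and 11.12 in HT-Veh and 10.997, 10.91, 10.999 and 11.09 in HT-Flx mice. The levels overlapped in both genotypes, and the 2 highest mice, WT-Veh replicate 1 and WT-Flx replicate 1, were both among those high in bulb markers. With the bulb level as covariate 20 of the 82 were lower (2.15% of all genes) and 0 higher (1.79%), and without the 5 mice 17 were lower (2.54%) and 0 higher (2.09%). Leaving out 1 mouse at a time gave from 5 lower (without WT-Veh replicate 1, median -0.04, with 1 higher) to 23 (without WT-Flx replicate 1, median -0.14), and 6, 8, 8 and 17 were lower without WT-Flx replicate 2, HT-Veh replicate 1, HT-Flx replicate 2 and HT-Flx replicate 4. Without HT-Flx replicate 1 there was also 1 higher. Of all genes, 345 of 17497 were lower without WT-Veh replicate 1 and 529 of 17496 without WT-Flx replicate 1. Without WT-Flx replicate 2 and HT-Veh replicate 1 these were 226 of 17492 and 238 of 17509. They were 270 of 17504 and 344 of 17508 without HT-Flx replicates 2 and 4. Higher genes numbered 348 of 17497 without WT-Veh replicate 1 and 267 of 17497 without HT-Flx replicate 1. Ribosomal protein genes have many processed pseudogenes that share their reads, and their values move together across mice, so the members are not independent.

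Genes of oxidative phosphorylation are encoded in the nucleus and in the mitochondrial genome, and no test compared these groups. Of 81 nuclear genes of the respiratory chain and ATP synthase, 9 were lower (11.1%, against 1.74%) and 0 higher, 66 had a change below 0 (49.1% of all genes did), and the median was -0.08. Atp5e, a subunit of ATP synthase, had the largest change of these at -0.44 ± 0.16, with -0.84 in WT and -0.04 in HT mice. It had 1548, 1055, 1096 and 1113 in WT-Veh and 902, 534, 599 and 675 in WT-Flx mice, which did not overlap (Flx lower without overlap for 1.09% of all genes in WT mice). HT mice overlapped, with 1107, 924, 793 and 915 on vehicle and 743, 723, 1003 and 1218 on fluoxetine. Ndufa4, Ndufa2 and Cox7b, of the respiratory chain, changed by -0.30, -0.28 and -0.21. With the bulb covariate 11 were lower (2.15% of all genes) and without the 5 mice 7 were lower (2.54%), and Ndufa2 was then at -0.16. Leaving out 1 mouse at a time gave from 3 lower (without WT-Veh replicate 1, median -0.03, or without WT-Flx replicate 2, median -0.04) to 22 (without WT-Flx replicate 1, median -0.12), with 14 without HT-Flx replicate 4, 4 without WT-Flx replicate 3 and 5 each without WT-Flx replicate 4, HT-Veh replicate 1 and HT-Flx replicate 2. Over all genes, 345, 226 and 529 were lower without WT-Veh replicate 1, WT-Flx replicate 2 and WT-Flx replicate 1. The number lower was 344, 286 and 250 without HT-Flx replicate 4, WT-Flx replicate 3 and WT-Flx replicate 4. It was 238 and 270 without HT-Veh replicate 1 and HT-Flx replicate 2. None of the 13 genes encoded in the mitochondrial genome was at an unadjusted p under 0.05, and their median change was 0.09, or 0 after quantile normalization and 0.02 without the 5 mice. Of 78 mitochondrial ribosomal protein genes 3 were lower (3.85%, against 1.74% of all genes), namely Mrpl35, Mrpl17 and Mrpl12.

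Markers of mural cells, the smooth muscle cells and pericytes of vessel walls, all had changes below 0 (49.1% of all genes did). Of 10 markers 3 were lower at an unadjusted p under 0.05, against 1.74% of all genes, and 0 were higher, and the median was -0.16. The contractile genes Acta2 and Tagln changed by -0.31 ± 0.14 and -0.25 ± 0.12, and the receptor Notch3 by -0.24 ± 0.11. In HT mice the median was -0.33 and in WT mice -0.04. Without the 5 mice high in bulb markers 5 were lower (2.54% of all genes), as were 5 without WT-Veh replicate 1 alone (345 of 17497 genes). Without HT-Veh replicate 1 or 3, or HT-Flx replicate 2 or 4, none was. The count was 1 or 2 without WT-Veh replicates 2, 3 or 4, WT-Flx replicates 1 or 2, HT-Veh replicate 4 or HT-Flx replicate 3. Over all genes, 238, 304, 270 and 344 were lower without HT-Veh replicates 1 and 3 and HT-Flx replicates 2 and 4. The number was 252, 276 and 268 without WT-Veh replicates 2, 3 and 4. It was 529 and 226 without WT-Flx replicates 1 and 2, and 347 and 392 without HT-Veh replicate 4 and HT-Flx replicate 3. Acta2 had 682, 524, 774 and 529 in HT-Veh and 558, 299, 468 and 361 in HT-Flx mice, against 410, 498, 496 and 518 in WT-Veh and 391, 419, 565 and 532 in WT-Flx mice. Of 12 endothelial markers 2 were lower (1.74% of all genes were), Tie1 (-0.26) and Esam (-0.20). Without the 5 mice 1 was lower (2.54% of all genes) and Esam was at -0.04. In bulk tissue, fewer cells of a type and less RNA per cell cannot be told apart.

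**Figure D3:**
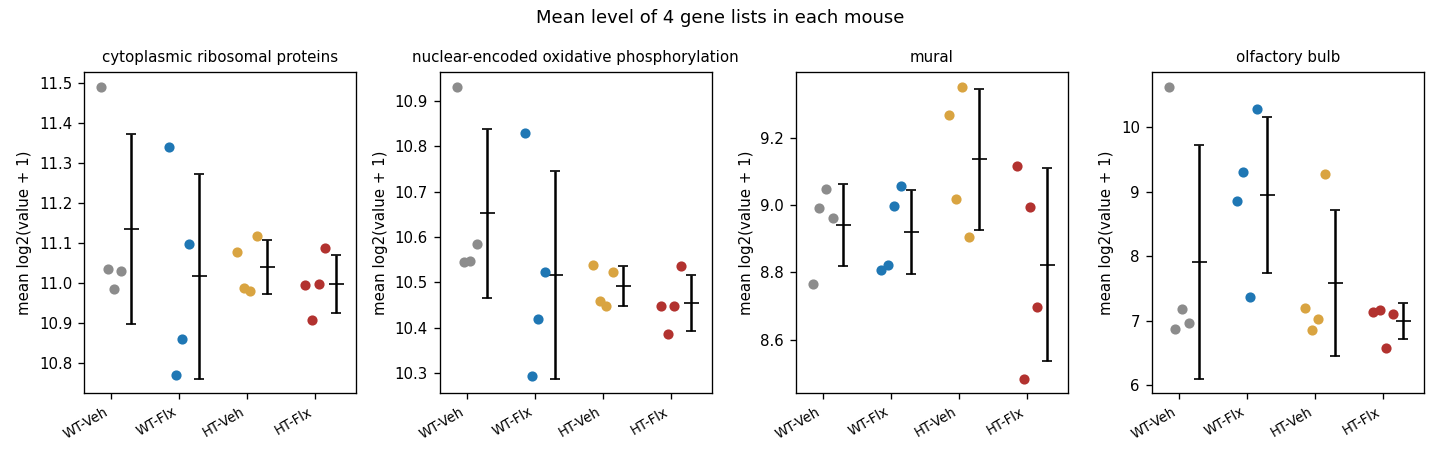
Mean log2(value + 1) over the members of 4 gene lists (y axis, not from 0) in each mouse, as points by group (x axis), with the group mean and SD (n = 4) as black bars. Ribosomal and oxidative phosphorylation levels are highest in WT-Veh replicate 1 and WT-Flx replicate 1, mural levels are spread widest in HT-Flx mice, and bulb marker levels are high in 5 mice.

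Among inhibitory neurons, Pvalb, the calcium buffer of fast-spiking interneurons, was the 1 of 15 GABAergic markers at an unadjusted p under 0.05 (1.74% of all genes were lower and 1.37% higher). It had 819, 1126, 1132 and 1117 in WT-Veh and 826, 545, 838 and 558 in WT-Flx mice, and 758, 775, 900 and 571 in HT-Veh and 786, 622, 799 and 640 in HT-Flx mice. The change was -0.34 ± 0.13 over both genotypes, -0.62 in WT and -0.07 in HT, and the interaction was 0.55 (unadjusted p = 0.034). All WT-Veh mice but the one high in bulb markers lay above every WT-Flx mouse, and the HT groups overlapped. In the list of the perineuronal net, the matrix around such interneurons, 2 of 20 genes were lower (10%, against 1.74% of all genes), Pvalb and the hyaluronan synthase Has3 (-0.38). The synthase Has2 was higher (0.87), as 1 of 20 against 1.37% of all genes, at means of only 6.12 and 10.3. In the list, 1 was lower (2.54% of all genes) and 1 higher (2.09%) without the 5 mice.

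For stress and protein folding, Crhr1, the receptor of corticotropin-releasing hormone, was the 1 of 20 genes of the glucocorticoid and stress list at an unadjusted p under 0.05, in the negative direction (1.74% of all genes). Its means were 718 ± 122 (SD, n = 8) and 599 ± 85.9 (n = 8), a change of -0.26, with -0.43 in WT and -0.09 in HT mice. Of 20 heat shock chaperones 2 were higher (10%, against 1.37% of all genes) and 0 lower. Both are chaperones of the endoplasmic reticulum, Hspa5 (0.25) and Hsp90b1 (0.13). Calr, the calreticulin gene of the same compartment, which was on no list and was chosen after its values were seen, changed by 0.16 ± 0.06. Of the 20, 4 were higher without the 5 mice (2.09% of all genes), with Hspa5 at 0.40. Of 20 circadian clock genes, Cry1, a repressor of the clock, was the 1 that was higher (0.27), against 1.37% of all genes. Without the 5 mice 3 were higher (2.09% of all genes) and Cry1 was at 0.41.

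Among 28 genes of the SWI/SNF complex, to which ARID1B belongs, 2 were higher (7.14%, against 1.37% of all genes) and 0 lower. Without the 5 mice high in bulb markers 0 were higher (2.09% of all genes) and 1 lower (2.54%). The ATPase gene Smarca2 had 8521, 8492, 8035 and 8246 in WT-Veh and 11144, 9659, 9848 and 9880 in WT-Flx mice, which did not overlap (Flx higher without overlap for 1.81% of all genes in WT mice). In HT mice it had 8775, 9262, 9505 and 8193 on vehicle and 9312, 7759, 9705 and 8810 on fluoxetine, which did. The change was 0.14 over both genotypes and the interaction was -0.29 (unadjusted p = 0.017). Dpf3 changed by 0.34. Without the 5 mice the changes were 0.04 and 0.13. Arid1b itself had a mean of 2368 ± 432 (SD, n = 4) in WT mice on vehicle and 2159 ± 233 on fluoxetine, against 1795 ± 160 and 1636 ± 61.0 in HT mice, so that the HT groups had the lower means. Values of WT mice ran from 1787 to 2831 and of HT mice from 1545 to 2005 and overlapped. Its change with fluoxetine was -0.12 ± 0.08, at an unadjusted p of 0.134.

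Lists tied to synaptic plasticity held no member at an unadjusted p under 0.05. This was so for 11 genes of the neurotrophins and their receptors, 21 AMPA and NMDA receptor genes, 12 GABA-A receptor genes, 10 targets of the fragile X protein FMRP, which the study had picked from other samples, 8 genes of class IIa HDACs and MEF2 factors, and 30 immediate early genes. Hdac4, Mef2a, Arc and Bdnf were chosen after their values were seen. Hdac4, a class IIa deacetylase, changed by -0.08 over both genotypes, as -0.32 in WT and 0.17 in HT mice, with an interaction of 0.48 (unadjusted p = 0.033). Mef2a changed by 0.06 with an interval from -0.09 to 0.21. Arc, the activity-regulated gene that acts on AMPA receptors, ran from 1373 to 6474 in Veh and from 1974 to 10418 in Flx mice, so that its interval, from -0.60 to 0.80, was wide. Bdnf changed by 0.25 with an interval from -0.12 to 0.63, and 1 HT-Flx mouse had 1561 against 429 to 669 in all Veh mice. The immediate early genes had a median change of 0.10, 0.02 in WT and 0.17 in HT mice, and 6 of the 30 were below 0 (49.1% of all genes). Without the 5 mice high in bulb markers the median was 0.28 and 1 of the 30 was higher at an unadjusted p under 0.05 (2.09% of all genes).

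Glial and other markers had few or no members counted, where 1.74% of all genes were lower and 1.37% higher. Of 12 astrocyte markers Aldh1l1 was lower (-0.17, and -0.06 without the 5 mice, where 0 were lower). Of 7 choroid plexus markers tested, Kl was higher (0.35), and without the 5 mice 0 were. The lists of myelin, cholesterol synthesis, interferon response, microglia, oligodendrocytes and their precursors, meninges, blood, migrating neuroblasts, striatal projection neurons, and both upper-layer and deep-layer glutamatergic neurons had 0 in either direction. Myelin genes had a median of 0.09, with 2 of 17 below 0, and deep-layer glutamatergic markers 0.10, or 0.05 without the 5 mice, with 2 of 13 below 0 (49.1% of all genes were). Upper-layer and deep-layer glutamatergic markers had mean log2 levels from 11.14 to 11.61 and from 9.30 to 10.05 in all mice. Striatal projection neuron markers spread more, from 8.48 to 10.64 in Veh and from 8.39 to 9.99 in Flx mice. Their median change was 0.41 in WT and -0.14 in HT mice.

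**Figure D4:**
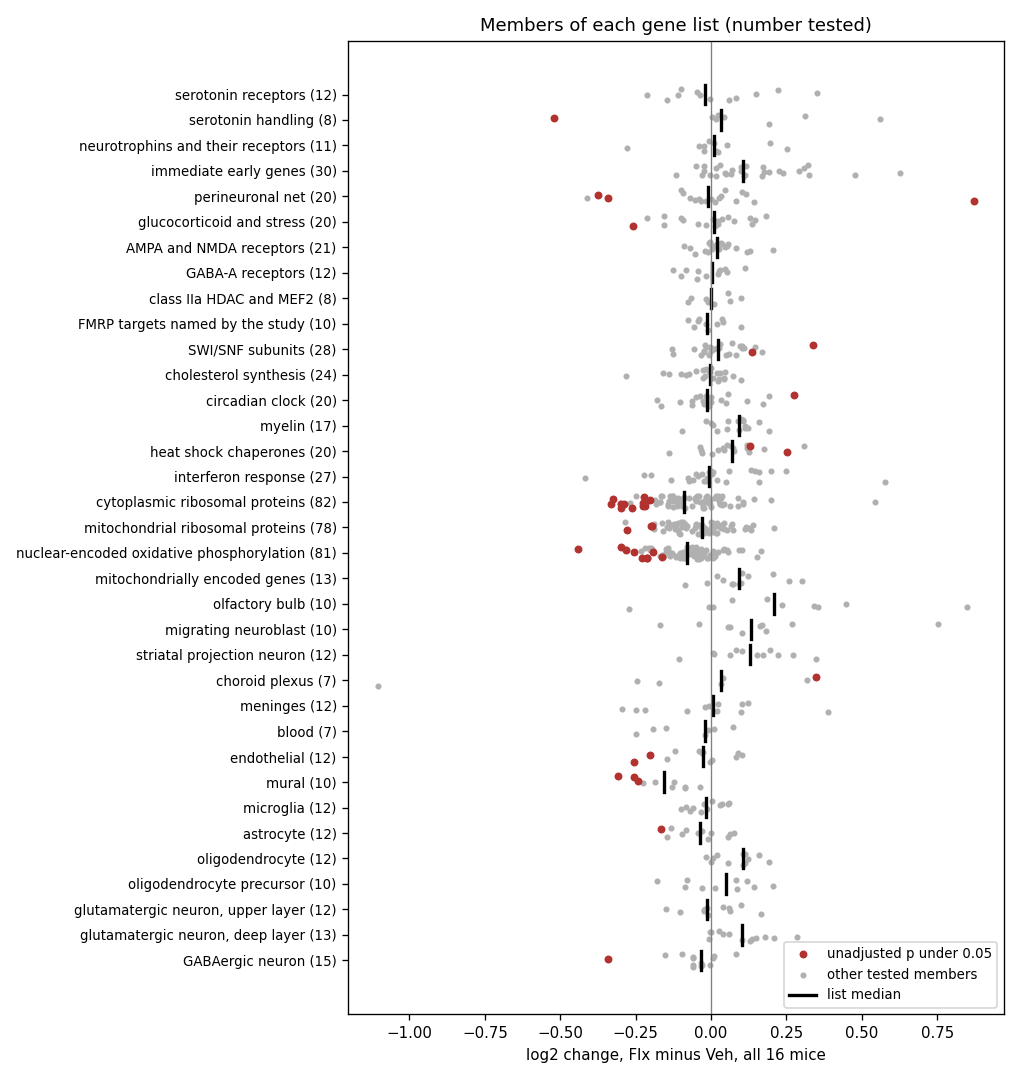
Log2 change, Flx minus Veh over all 16 mice (x axis), of each tested member of 35 gene lists (y axis, number tested in brackets), as points, red at an unadjusted p under 0.05, with the list median as a black bar. Red points lie to the left for ribosomal proteins, nuclear oxidative phosphorylation and mural markers, and most medians lie within 0.1 of 0.

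The pooled change presumes that fluoxetine moves a gene alike in both genotypes, and this was set beside the changes in each. In WT mice 0 of 16833 genes passed adjustment in limma, 707 (4.2%) were counted at an unadjusted p under 0.05, 2.2% of the genes higher and 2% lower, and the smallest adjusted p was 0.168. In HT mice 0 of 16814 passed, 516 (3.07%) were counted, 1.43% higher and 1.64% lower, and the smallest adjusted p was 0.900. The interaction passed for 0 of 17567 genes, with 754 (4.29%) counted, 2% positive and 2.29% negative, and a smallest adjusted p of 0.596. These are comparisons of different mice that share no controls. Across 16532 genes tested in both, the changes had the same sign for 46.9%, with Pearson's r of -0.09 and Spearman's rho of -0.08, as a description across genes, which are not independent. The bulb marker level moved in opposite directions in the genotypes, and with it as covariate 49.2% had the same sign (r = -0.06), as did 48.8% without the 5 mice (r = -0.07).

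Of 691 genes at an unadjusted p under 0.05 in WT and 506 in HT, 21 were in both lists. Over all genes, 4.2% were counted in WT and 3.07% in HT mice. An overlap of this size is near those shares and is no result about the 21. The sign was the same for 6, which is 0.868% of the WT and 1.19% of the HT list, and opposite for 15 (2.17% and 2.96%). The 6 were Ptgis, Ftsj3, Ccl28, Mmp23, Hfe2 and Gm10222, the last 3 named after their values were seen. Hfe2, which encodes hemojuvelin, a coreceptor in iron regulation, had 45.8, 51.5, 62.4 and 58.9 in WT-Veh and 40.1, 35.8, 44.0 and 21.4 in WT-Flx mice, which did not overlap (Flx lower for 1.09% of all genes). It had 57.3, 37.1, 68.6 and 29.3 in HT-Veh and 28.7, 19.9, 28.5 and 22.02 in HT-Flx mice, which did not overlap either (Flx lower without overlap for 1.05% of all genes in HT mice). The change was -0.76 ± 0.19 over both genotypes and -0.86 without the 5 mice. Mmp23, a metalloproteinase, changed by -1.15 ± 0.38, at means of 31.0 and 16.2. Gm10222, an unprocessed pseudogene on chromosome 1, was listed at 0 in 2 of 8 Veh and 6 of 8 Flx mice and ran up to 17057 in the others. Reads of an unprocessed pseudogene can be shared with near-identical copies, so its value is uncertain and no fold is given.

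**Figure D5:**
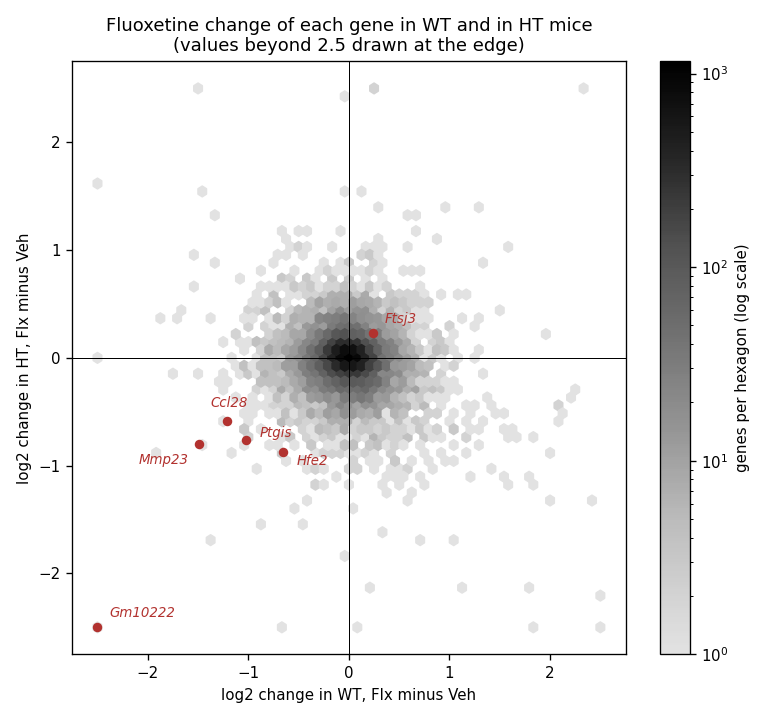
Log2 change with fluoxetine in WT mice (x axis) against that in HT mice (y axis), with shading for the number of genes per hexagon on a log scale and changes beyond 2.5 drawn at the edge. The cloud of 16532 genes is centred near 0 with no slope upward (r = -0.09), and the 6 genes at an unadjusted p under 0.05 with the same sign in both genotypes are labelled.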

How the data were processed

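RNA from the mPFC of 16 mice was sequenced as stranded poly-A libraries on a NovaSeq. The authors estimated transcript abundance with Salmon (1.1.0, GC bias correction, GRCm38), imported it with tximport and normalized it in DESeq2 (1.30.1). The deposited signal is a normalized read count, an estimated gene count divided by a size factor. The values were not whole and could not be turned back into reads, so depth is unknown, no floor is given, and count models were not used. The table held 18424 genes, 18411 of which matched a symbol and position in GENCODE M21 (GRCm38). No columns were identical.

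Groups and replicate numbers came from sample titles. All 16 columns entered limma (3.58.1, in R 4.3.3, with eBayes set to follow the intensity trend) on log2(value + 1), with genotype as covariate, for genes that reached 10 or more in 4 or more mice, with two-sided p-values adjusted by Benjamini and Hochberg and a threshold of 0.05. Such changes understate those of low genes. WT and HT mice were also fitted alone, and the interaction in all mice. Totals and shares per mouse were compared by exact permutation of treatment within genotypes (4900 splits, smallest p 0.000408). The script was tested on simulated data.

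Named genes were Arid1b, the 10 protein-coding genes with the smallest p in each direction among those with a mean of at least 50, the 2 smallest p of any type, list members at an unadjusted p under 0.05 (at most 4 a list) and all genes of both serotonin lists. Some genes the rule took are not reported here. Other genes were chosen after their values were seen. The members, gene lists and tests were chosen with earlier results of these data known. Alternatives were pseudocounts of 0.1 and 8, no filter, a mean of at least 100, a common upper quartile, quantile normalization, sample quality weights, the replicate block, no genotype covariate, all 4 groups in the fit, no trend, robust eBayes, a bulb marker covariate and leaving out each mouse. Leaving out the 5 mice with a bulb marker level above 8 was added after seeing the data.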

Additional observations from a re-analysis of the deposited data

Results flagged for a closer look

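Among 79 named genes in 4 groups of 4 mice, 25 of 316 groups (7.91%) held 1 mouse far from the other 3 on the log2 scale, where chance alone gives about 1 in 20, and 7 of the 25 were in WT-Veh replicate 1, a mouse high in bulb markers. In that mouse the distant normalized read counts were Dnajb4 at 1512, Ddc at 171, Slc22a3 at 74.3, Pvalb at 819 (others 1117 to 1132), Atp5e at 1548 (others 1055 to 1113), Notch3 at 458 and Hdac4 at 1316 (others 2046 to 2204). The other vehicle mice flagged were WT-Veh replicate 2 for Maoa at 931 and Has2 at 7.22, HT-Veh replicate 1 for Rpl9 at 5980, HT-Veh replicate 3 for Mef2a at 4733, and HT-Veh replicate 4 for Dnajb4 at 1818 and Htr1a at 428. Among fluoxetine mice they were WT-Flx replicate 1 for Smarca2 at 11144, WT-Flx replicate 3 for Maob at 658 and Gm10222 at 223, and WT-Flx replicate 4 for Kcnip4 at 1990 and Htr3a at 242. In HT-Flx mice, replicate 2 had Fn3krp at 771, Slc29a4 at 279 and Hdac4 at 2801 (others 1955 to 2004), replicate 3 had Slc18a2 at 1.79 and Gm10222 at 295, and replicate 4 had Arid1b at 1545 (others 1661 to 1671) and Ftsj3 at 768.

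The change with fluoxetine differed between genotypes at an unadjusted p under 0.05 for 7 named genes, none of which passed adjustment in limma. The change in HT minus that in WT was 1.68 for Htr4, 0.79 for Atp5e, 0.55 for Pvalb, 0.48 for Hdac4, 0.22 for Ogdhl, -0.29 for Smarca2 and -0.57 for Acta2 on the log2 scale. For Htr4, Hdac4 and Smarca2 the estimates in the genotypes had opposite signs, although that of Smarca2 in HT was -0.01.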

How the results depend on the processing

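The comparison over both genotypes had 0 genes past adjustment in limma under all 29 alternatives, with a smallest adjusted p of 0.534. The count at an unadjusted p under 0.05, 546, was 1106 with sample quality weights and otherwise stayed within 1.5 times, apart from leaving out 1 mouse, which gave 428 to 889 (889 without WT-Flx replicate 1). In WT the count past adjustment was 12 with quality weights and 1 with the bulb covariate (Gm15446). It was 1 with no intensity trend (AC123659.1), 9 without the mice above a bulb level of 8, where the lone WT-Flx mouse is assumed to vary like the others, and 0 to 4 with 1 mouse left out. The 4, without WT-Veh replicate 1, were all higher and included Nr4a2, Cyp26b1 and Gm28037, and those named here were chosen after their values were seen. In HT it was 0 throughout, and the interaction gave 2 without the mice above 8 (Gm14288 and Trpc2) and 0 otherwise. The cause was not tested. For the 22 genes the rule took by p, Arid1b included, all 631 values kept their sign and stayed short of adjustment. Apart from Arid1b they were chosen for a small p in these same mice, so a kept sign is no separate evidence. Of 1015 medians of the 35 lists 122 changed sign, none by more than the spread between mice. Of the ribosomal, nuclear oxidative phosphorylation and mural lists, 16, 20 and 2 members were lower at an unadjusted p under 0.05 with quality weights, where 2 ribosomal genes were higher, and 11, 5 and 1 with no trend. Of all 17567 genes, 601 were lower and 505 higher with quality weights, and 338 were lower with no trend, against 306 lower as reported. A planned bulb level limit of 6 could not be run, since every mouse lay above it.

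The labels do not say whether replicate numbers pair the mice, and the main comparison treated them as unpaired. Correlations over so few pairs cannot decide this. Deviations of same-numbered mice correlated from -0.20 to 0.31 over 8 pairs, 4 above 0.1, and 2 pairs correlated best with their own number. With the number as replicate block, 0 genes passed in the comparison over both genotypes, and 666 were at an unadjusted p under 0.05. The block raised the lower members to 19 for ribosomal and 16 for nuclear oxidative phosphorylation genes, where 385 of all 17567 genes were lower. It passed 0 in WT, HT and the interaction as well.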
